A study of Mus musculus with 6 samples.

Results

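The TGF-beta pathway genes described here are 10 genes: the ligand genes Tgfb1 and Tgfb3, the receptor genes Tgfbr1 and Tgfbr2, the Smad genes Smad2, Smad3, Smad4 and Smad7, and the co-repressor genes Ski and Skil. They were taken by gene symbol from a deposited table of 47719 genes, in which each of the 10 symbols stood on 1 row. The RNA came from spinal cord cells that had been selected for CD11b, a surface integrin of microglia and other myeloid cells, in 3-month-old mice of the inbred strain Biozzi ABH. The ECS group had been given electroconvulsive seizures, which a brief electrical stimulus induces, in 3 sessions on successive days, and was killed 1 day after the last. The control group carries the label of control and of naive mice, whereas the treatment protocol names a sham procedure. Each group had 3 libraries, numbered 1 to 3 here as in the labels, and each library was a pool of 5 mice, so that n counts pools. No genetic change is stated for either group, and every value comes from cells that had passed enzymatic dissociation, Percoll and magnetic beads.

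TGF-beta is secreted as a latent complex and, once released, binds the type II receptor Tgfbr2, which recruits and activates the type I receptor Tgfbr1. Tgfbr1 phosphorylates Smad2 and Smad3, which join Smad4 and enter the nucleus to regulate transcription, while Smad7 opposes the receptor and Ski and SnoN, the product of Skil, hold Smad complexes in a repressed state. In the central nervous system microglia make TGF-beta1 and need it to keep their resident identity.

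The promoters of 4 members are shown because these genes hold the extremes of the results: Tgfb1 had the highest level, Smad3 the widest spread between libraries among the tested members, and the receptor genes Tgfbr1 and Tgfbr2 the narrowest. RefSeq promoter sequences on GRCm38.p6 were matched by symbol for 5 of the 10 members, the fifth being Ski, and they belong to the reference strain, not to Biozzi ABH. Each line gives the 250 bases before the RefSeq start, 5' to 3' on the strand of the gene. Capitals mark the Smad box CAGAC (or its reverse complement GTCTG), which Smad3 and Smad4 can bind, and the GC box GGGCGG (or CCGCCC), which Sp1 can bind. The windows are chr7:25686752-25687001 (plus strand) for Tgfb1, chr4:47352972-47353221 (plus strand) for Tgfbr1, chr9:116175364-116175613 (minus strand) for Tgfbr2 and chr9:63757995-63758244 (minus strand) for Smad3.
Tgfb1: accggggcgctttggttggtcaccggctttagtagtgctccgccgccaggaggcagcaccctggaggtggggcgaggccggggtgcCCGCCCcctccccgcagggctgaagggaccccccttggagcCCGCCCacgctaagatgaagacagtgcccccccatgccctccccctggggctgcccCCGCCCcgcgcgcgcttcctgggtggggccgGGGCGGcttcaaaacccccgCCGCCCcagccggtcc
Tgfbr1: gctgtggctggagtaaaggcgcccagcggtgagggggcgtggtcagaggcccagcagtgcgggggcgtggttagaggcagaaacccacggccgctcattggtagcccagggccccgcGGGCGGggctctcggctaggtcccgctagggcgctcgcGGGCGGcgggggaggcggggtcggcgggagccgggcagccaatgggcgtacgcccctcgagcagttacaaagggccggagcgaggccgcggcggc
Tgfbr2: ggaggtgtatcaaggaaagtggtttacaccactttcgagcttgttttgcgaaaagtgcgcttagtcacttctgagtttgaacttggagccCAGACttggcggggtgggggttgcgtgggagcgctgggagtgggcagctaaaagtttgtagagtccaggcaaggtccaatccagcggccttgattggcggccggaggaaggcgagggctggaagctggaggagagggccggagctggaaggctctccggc
Smad3: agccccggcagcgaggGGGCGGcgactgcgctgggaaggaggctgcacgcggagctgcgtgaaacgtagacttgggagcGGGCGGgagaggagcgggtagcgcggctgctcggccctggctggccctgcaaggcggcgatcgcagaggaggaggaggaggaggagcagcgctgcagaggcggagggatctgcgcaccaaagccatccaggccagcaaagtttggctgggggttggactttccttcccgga

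The Tgfb1 window held 5 GC boxes, the Tgfbr1 and Smad3 windows 2 each, and the Tgfbr2 window 0, and the Smad box was in the Tgfbr2 window only, once, of these 4. No 2 of these matches overlapped. For Tgfbr1 the table also lists a start further into the gene, at 47386216, whose window differs: it held 1 Smad box, 1 PU.1 core and 0 GC boxes, with a G and C content of 52.8%. Over 32851 RefSeq promoters, 32.7% held a GC box and 42.2% a Smad box in the same 250 bases. The G and C content was 75.2% for Tgfb1, 74.8% for Tgfbr1, 69.2% for Smad3 and 58.4% for Tgfbr2, where the median of all promoters was 52.4%. The AP-1 motif TGANTCA and the TATA box TATAAA, searched on both strands, were in none of the 4 windows, and 6.75% and 12.4% of all promoters held them. The PU.1 core GAGGAA (or TTCCTC) was once in the Tgfbr2 window and was held by 23.3% of all promoters. A match describes letters and is not a site of binding.

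Expression is given as FPKM (fragments per kilobase, scaled to the size of the library), which is per length and so can be compared between genes, and wherever 3 values follow each other they are replicates 1, 2 and 3 in that order. The sum over all genes was 729831 to 1009665 per library, and the number of reads behind it is unknown. Markers of microglia summed to 7605 to 10242 FPKM in control and 5969 to 9156 in ECS (10 of 10 markers detected in every library), and those of neutrophils, which also carry CD11b, to 11103 to 20234 and 8556 to 10380 (10 of 10). Markers of neurons summed to at most 0.912 FPKM, with Syt1 and Nefl at 0 in all 6 libraries. Erythroid markers, those of red blood cells, summed to 2231 to 32755 FPKM in control and 7207 to 77287 in ECS. Markers of oligodendrocytes summed to 73.8 to 187 and 67.4 to 233. Control 1 and ECS 3 stood apart from the other libraries: their 12 endothelial and mural markers summed to 67.7 and 64.9 FPKM, against 187 to 546 in the others. ECS 1 had 1580 tested genes listed at 0, against 448 to 806 elsewhere. Its 6 B cell markers summed to 709 FPKM, against 9.04 to 46.4 in the other libraries. In bulk RNA such as this, fewer cells of a type and less RNA per cell cannot be told apart.

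No member differed between ECS and control beyond the spread between pools. Of the 9 members whose mean reached 1 FPKM, 0 passed an adjusted p under 0.05 in limma, fitted to log2(FPKM + 1), in a comparison in which 0 of all 11315 genes tested did (0.00%). Adjusted p was 1.00 for each of the 9. At an unadjusted p under 0.05 there were 0 of 9 members, where 3.66% of all genes tested had such a p, and the smallest was 0.107, for Smad4. The groups overlapped for 10 of 10 members, whereas 7.49% of all genes tested had groups that did not overlap. Values were higher in ECS for 5 of 9 members and lower for 4. Their median log2 fold change was 0.024, and over all genes tested 49.2% were higher and 50.8% lower, with a median of -0.0078.

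**Figure D1:**
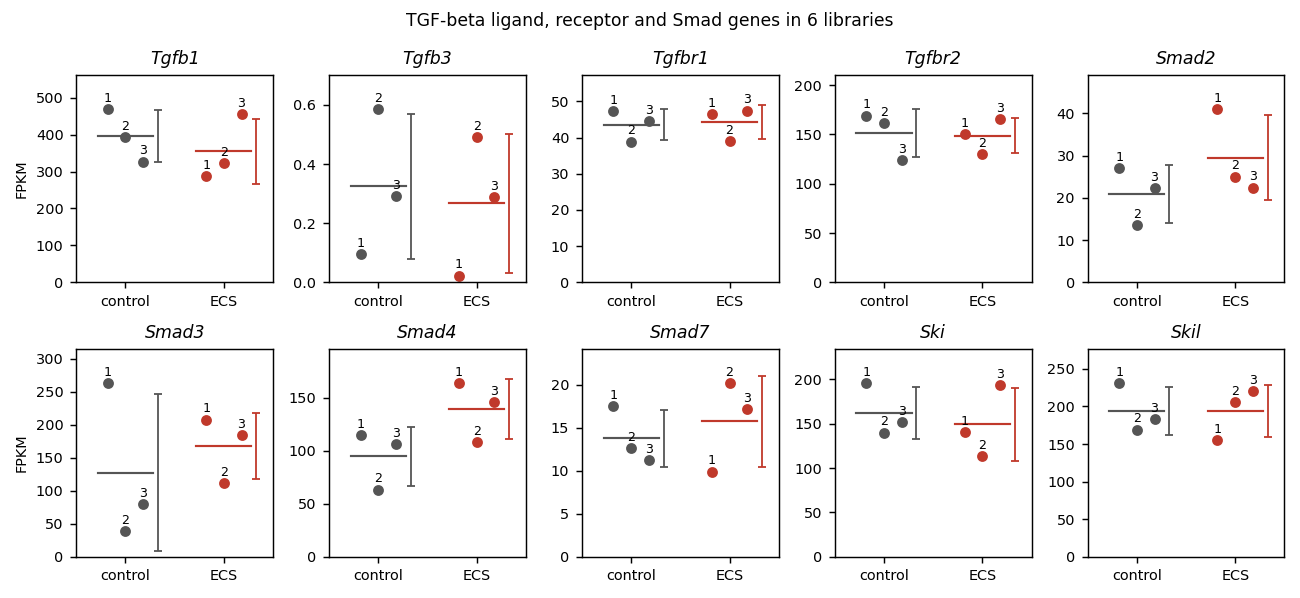
FPKM of each member (vertical axes from 0, scaled per gene) in control and ECS libraries. Points are libraries with their replicate number, horizontal lines are group means and bars are SD (n = 3 pools). Control and ECS points overlap in height for all 10 genes, and Smad3 spans from 38.8 FPKM in control 2 to 262 in control 1.

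Tgfb1, which encodes the TGF-beta1 ligand, was the highest of the 10 in all 6 libraries and ranked 250 among the 11315 genes tested. It read 469, 393 and 327 FPKM in the controls and 288, 322 and 455 after ECS. The 2 highest libraries, control 1 and ECS 3, belong to different groups, so the groups overlapped almost fully. The log2 fold change was -0.17 ± 0.26 (SE), with a 95% interval of the fold from 0.583 to 1.36. In GRCm38 the gene is on chromosome 7 (25687002 to 25705077, plus strand), and it overlaps no other gene in GENCODE M21.

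Tgfb3, the gene of a further ligand of the same receptors, was hardly detected. It read 0.0960, 0.586 and 0.292 FPKM in the controls and 0.0232, 0.492 and 0.289 after ECS, under the mean of 1 FPKM that a tested gene needed. Its level was at most 0.00153 of that of Tgfb1 in the same library. The gene lies on chromosome 12 (86056745 to 86079041, minus strand) and overlaps Ttll5 on the opposite strand, which was at 8.96 to 24.6 FPKM. The deposited locus of Tgfb3 covers Ttll5 as well, and the sources used here do not say whether counting used strand, so even this low value is uncertain.

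The receptor genes were the steadiest members. Tgfbr1, the gene of the signalling type I receptor, read 47.3, 38.9 and 44.5 FPKM in the controls and 46.6, 39.0 and 47.4 after ECS. Replicate 2 was the lowest library in both groups, and the remaining 4 libraries lay close together. The log2 fold change was 0.024 ± 0.25 (SE), with a 95% interval of the fold from 0.680 to 1.52. Its SD within groups was 0.15 on the log2 scale, and of 2036 tested genes within 2-fold of its mean level 3.59% had a lower one. Tgfbr2, the gene of the ligand-binding type II receptor, read 169, 161 and 124 FPKM in the controls and 149.9, 130.3 and 166 after ECS. All 3 ECS libraries lay inside the range of the control libraries. The log2 fold change was -0.021 ± 0.24 (SE), with a 95% interval of the fold from 0.672 to 1.45. Within a library Tgfbr2 was 2.79 to 4.15 times Tgfbr1 in control and 3.22 to 3.49 times in ECS, a ratio that does not depend on scaling between libraries. Tgfbr1 lies on chromosome 4 (47353222 to 47414931, plus strand) and Tgfbr2 on chromosome 9 (116084293 to 116175360, minus strand).

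Smad3, the gene of a receptor-activated Smad that binds DNA directly, varied most of the tested members. It read 262, 38.8 and 80.0 FPKM in the controls and 208, 112 and 184 after ECS. Control held both the highest and the lowest library, 6.77-fold apart, and the ECS libraries lay between them, within 1.86-fold of each other. The controls averaged 127 ± 119 FPKM against 168 ± 50.0 after ECS (SD, n = 3 each), and the log2 fold change was 0.79 ± 0.65 (SE), with a 95% interval of the fold from 0.596 to 4.99. Its SD within groups was 1.03 on the log2 scale, and 91.2% of 819 tested genes within 2-fold of its mean level had a lower one. The gene is on chromosome 9 (63646767 to 63757994, minus strand).

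Smad2, the gene of the other Smad activated by Tgfbr1, read 27.0, 13.6 and 22.4 FPKM in the controls and 41.0, 25.0 and 22.4 after ECS. Control 2 was the lowest and ECS 1 the highest library, and the others lay close together in both groups. The log2 fold change was 0.47 ± 0.38 (SE), with a 95% interval of the fold from 0.749 to 2.58. Smad4, the gene of the common partner Smad, read 115, 63.3 and 106 FPKM in the controls and 163, 108 and 146 after ECS. Here 2 ECS libraries exceeded every control library, while ECS 2 lay between control 3 and control 1. The log2 fold change was 0.57 ± 0.31 (SE), with a 95% interval of the fold from 0.896 to 2.48. Smad2 is on chromosome 18 (76241580 to 76310963, plus strand), and Smad4 on the same chromosome (73639009 to 73703780, minus strand) with a processed pseudogene inside it on the other strand.

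Smad2, Smad3 and Smad4 had in common that control 2 was their lowest library. Without control 2 the log2 fold changes were 0.20 for Smad2, 0.16 for Smad3 and 0.31 for Smad4. Without control 1, the library with the most Smad3, that of Smad3 was 1.52, with an unadjusted p of 0.0123 and an adjusted p of 0.958 in limma. Control 2 also had the highest sum of neutrophil markers, 20234 FPKM against 8556 to 14068 in the other libraries, and the part of this in the Smad values was not tested. Smad3 exceeded Smad2 in all 6 libraries, by 9.72, 2.86 and 3.58 times in control 1, 2 and 3 and by 5.07, 4.47 and 8.21 times in ECS 1, 2 and 3. This ratio was highest in control 1 and ECS 3, the libraries with the fewest endothelial and mural transcripts. With these markers as a covariate the log2 fold change was 0.49 ± 0.43 for Smad3 and 0.42 ± 0.40 for Smad2 (SE). Without control 1 and ECS 3 together that of Smad3 was 1.43, with an unadjusted p of 0.0388 and an adjusted p of 0.962 in limma. Both settings were chosen after the data were seen, and the part of these cells in the ratio was not tested.

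Smad7, the gene of the inhibitory Smad that TGF-beta itself induces in many cells, was the lowest of the tested members. It read 17.5, 12.6 and 11.2 FPKM in the controls and 9.91, 20.2 and 17.2 after ECS. The ECS group held both the lowest and the highest library. The log2 fold change was 0.15 ± 0.38 (SE), with a 95% interval of the fold from 0.602 to 2.04. Smad7 was 0.106 to 0.200 of Smad4 in control libraries and 0.0607 to 0.186 in ECS libraries. It is on chromosome 18 (75367529 to 75395935, plus strand).

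Ski and Skil, whose products recruit co-repressors to Smad complexes and are degraded when the pathway is active, were abundant. Ski read 195, 140.0 and 151 FPKM in the controls and 140.4, 113 and 194 after ECS. Control 1 and ECS 3 were the highest here too. Skil read 231, 169 and 184 FPKM in the controls and 155, 206 and 220.4 after ECS. Only ECS 1 lay below the control libraries. The log2 fold changes were -0.14 ± 0.28 for Ski and -0.0088 ± 0.25 for Skil (SE), with 95% intervals of the fold from 0.576 to 1.43 and from 0.666 to 1.48. Skil exceeded Ski by 1.18 to 1.21 times in the control libraries and by 1.10, 1.82 and 1.14 times in ECS 1, 2 and 3. Ski is on chromosome 4 (155154075 to 155222592, minus strand) and Skil on chromosome 3 (31095058 to 31122577, plus strand).

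The precision differed between members. For Tgfb1, Tgfbr1, Tgfbr2, Ski and Skil the unadjusted 95% interval left out a 2-fold difference in either direction. For Smad2, Smad3, Smad4 and Smad7 it held both no difference and a 2-fold higher value in ECS. In the 20 alternative settings the sign of the fold change stayed the same for Smad2, Smad3 and Smad4. It changed in 8 for Tgfbr1, 5 for Skil, 4 for Tgfbr2, 3 for Ski and 1 each for Tgfb1 and Smad7. Some of the 20 could not change a sign: another filter or variance model, or a block for the replicate number, leaves each fold change as it was.

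**Figure D2:**
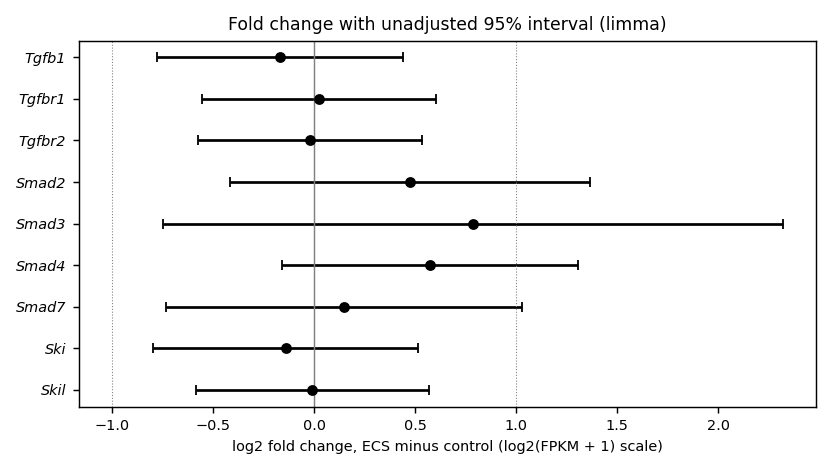
Log2 fold change of ECS minus control on the log2(FPKM + 1) scale for the 9 tested members. Points are limma estimates and bars are unadjusted 95% intervals; dotted lines mark a 2-fold difference. Every bar crosses 0, and that of Smad3 is the widest.

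**Figure D3:**
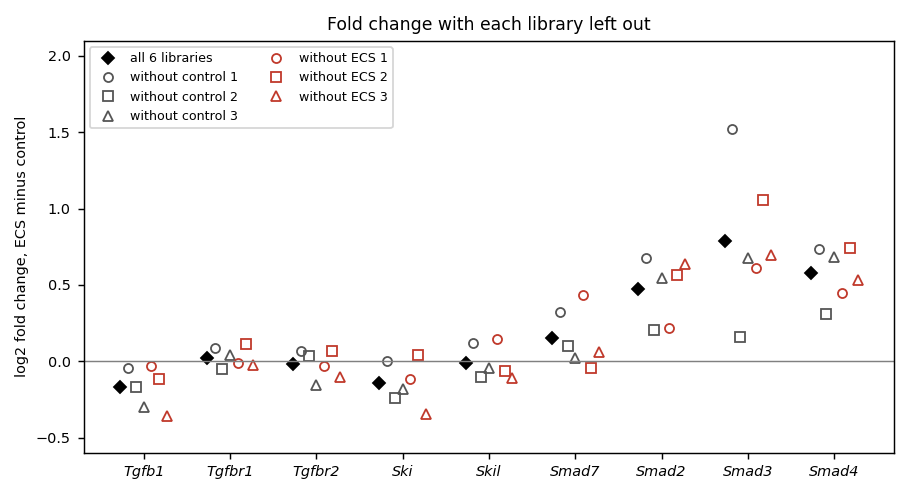
Log2 fold change of ECS minus control (vertical axis) for each tested member with all 6 libraries (diamonds) and with each library left out (open symbols, grey for a control and red for an ECS library). Smad3 moves from 0.16 without control 2 to 1.52 without control 1, while Tgfbr1 stays between -0.054 and 0.11.

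The order of levels was stable at its ends and not in its middle. Tgfb1 was the highest, and Smad2, Smad7 and Tgfb3 were in this order the lowest, in all 6 libraries. Skil, Ski, Tgfbr2, Smad3 and Smad4, with means over the 6 libraries of 194, 156, 150.0, 147 and 117 FPKM, were close to each other. Skil was above Ski and Tgfbr2 in all 6 libraries, whereas Ski and Tgfbr2 changed places between libraries, and Smad3 and Smad4 each changed places with Skil, Ski and Tgfbr2 and with each other. Smad3 ranked next to Tgfb1 in control 1 and ECS 1 but below Tgfbr1 in control 2. The 10 genes together summed to 1533, 1032 and 1051 FPKM in control 1, 2 and 3, and to 1202, 1077 and 1452 in ECS 1, 2 and 3.

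Variation between libraries was shared by some members across the groups. Tgfb1, Tgfbr1, Tgfbr2, Ski and Skil had the same 2 libraries at the top, control 1 and ECS 3. The mean log2(FPKM + 1) of the 10 microglia markers was also highest in control 1 (8.63) and ECS 3 (8.37), against 7.86 to 8.22 in the others. The part of the microglial share in these members was not tested. Profiles were compared with 4850 other genes whose mean reached 10 FPKM, and predicted gene models among these were passed over in naming the nearest. The profiles most like that of Tgfb1 over the 6 libraries were those of Nxf1, Tctn1 and Golm1, with mean absolute differences of 0.056 to 0.063 in centred log2(FPKM + 1). For Tgfbr1 they were Prdm1, Slc44a2 and Rps6ka4 (0.026 to 0.043), and for Ski they were Hhex, Tgfbrap1 and Itgb5 (0.050 to 0.067). Tgfbrap1 encodes a protein that associates with TGF-beta receptors and Itgb5 an integrin subunit, and likeness over 6 libraries is a description.

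**Figure D4:**
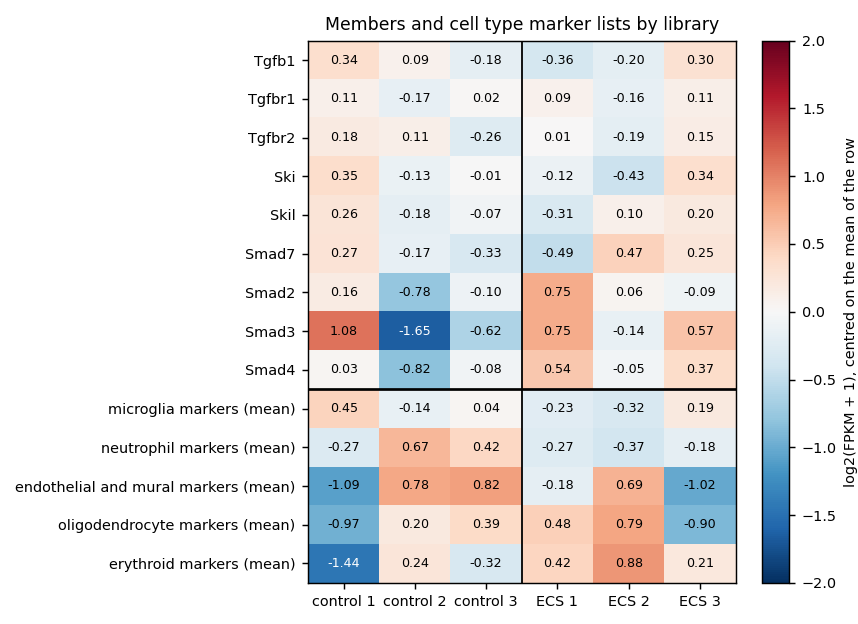
Log2(FPKM + 1) centred on the mean of each row, by library, for 9 members (Tgfb3 is left out as hardly detected) and for the mean of 5 marker lists. Red is above and blue below the row mean. Control 2 is lowest for Smad2, Smad3 and Smad4, while Tgfb1, Tgfbr1, Tgfbr2, Ski and Skil share their 2 highest libraries, control 1 and ECS 3, with the microglia markers.

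Beyond the members, 128 genes of the wider pathway were listed in 8 groups, each gene counted once, and 110 were tested. None passed (limma adjusted p 1.00 for each), 3 had an unadjusted p under 0.05 (2.73%, beside 3.66% of all genes tested), and 9 had groups that did not overlap (8.18%, beside 7.49%). Their median log2 fold change was 0.022.

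Latent TGF-beta is held and released by binding proteins, integrins and proteases, and 9 of the 13 tested genes of this kind had higher values in ECS and 4 lower, with a median of 0.15. That median was 0.029 without control 2, 0.090 without ECS 3 and 0.32 without control 1. The integrin subunit gene Itgb5 was the highest, averaging 548 ± 137 FPKM in the controls against 539 ± 147 after ECS (SD, n = 3 each). Thrombospondin 1, encoded by Thbs1 and able to release the active ligand, read 128, 137 and 435 FPKM in the controls and 508, 353 and 199 after ECS, with overlapping groups. The protease gene Plau averaged 143 ± 46.3 FPKM in the controls against 153 ± 11.0 after ECS, and Mmp9 148 ± 25.8 against 104 ± 23.6 (SD, n = 3 each). Of the other receptors and co-receptors 5 of 10 genes were tested, 1 with a higher and 4 with lower values. Their median of -0.18 was 0.056 without ECS 2, with 3 higher and 2 lower, and it was -0.090 without ECS 3, -0.34 without control 2 and -0.47 without ECS 1. Eng, the gene of the co-receptor endoglin, averaged 264 ± 42.7 FPKM in the controls against 212 ± 42.3 after ECS, and the endothelial type I receptor gene Acvrl1 93.8 ± 42.6 against 91.2 ± 37.0 (SD, n = 3 each). Tgfbr3, the gene of betaglycan, and Acvr2a, an activin receptor gene, were at 0.352 to 8.27 and 0.183 to 7.56 FPKM over the 6 libraries.

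The branch of bone morphogenetic proteins, a related ligand family that signals through Smad1 and Smad5, was low: 9 of 15 genes were tested, 4 with higher and 5 with lower values, and the median was -0.13 (0.025 without control 2, 0.031 without ECS 1). Acvr1, a type I receptor gene, averaged 25.8 ± 5.64 FPKM in the controls against 24.5 ± 10.1 after ECS. Smad5 averaged 17.5 ± 6.36 against 15.7 ± 9.44 FPKM and Smad1 12.6 ± 4.07 against 9.17 ± 3.32 (SD, n = 3 each), about the level of Smad7. The ligand gene Bmp2 averaged 5.94 ± 2.98 against 11.3 ± 7.07 FPKM.

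Regulators of the receptors and Smads had 10 of 18 tested genes with higher and 8 with lower values, and a median of 0.011 (-0.12 without control 2, -0.046 without ECS 3). Arrb2, the beta-arrestin gene, averaged 414 ± 75.1 FPKM in the controls against 428 ± 136 after ECS, and the endocytic adaptor gene Dab2 122 ± 33.4 against 147 ± 32.2. Hgs, an endosomal sorting gene, averaged 48.2 ± 9.31 against 55.4 ± 3.37 FPKM, and Pmepa1, an inhibitor of Smad activation that TGF-beta induces, 47.9 ± 16.8 against 46.5 ± 6.51 (SD, n = 3 each). Nuclear partners of the Smads had 10 of 17 with higher and 7 with lower values, and a median of 0.018 (-0.052 without control 2). The co-repressor genes Tgif1 and Ncor1 were even between the groups, with log2 fold changes of 0.018 ± 0.22 and 0.013 ± 0.20 (SE), and Runx1 likewise with 0.038 ± 0.30. Atf3, a stress-induced factor that can pair with Smad3, read 687, 481 and 619 FPKM in the controls and 734, 723 and 691 after ECS. All 3 ECS libraries were above all control libraries, by a log2 fold change of 0.28 ± 0.21 (SE) and an unadjusted limma p of 0.226. Runx3, a Runt factor gene, read 12.9, 7.79 and 18.9 FPKM in the controls and 21.0, 27.9 and 24.1 after ECS. These groups did not overlap either, the log2 fold change was 0.90 ± 0.38 (SE), and the unadjusted limma p was 0.0469. The Smad-independent branch, through the kinase Tak1 and p38, had 6 of 13 with higher and 7 with lower values and a median of -0.052. It was 0.078 without control 1, 0.013 without control 3 and 0.16 without ECS 2. The highest genes of this branch were Pik3r1 (171 ± 25.9 and 146 ± 37.8 FPKM), Rhoa (149 ± 14.7 and 142 ± 7.70), Tab2 (89.7 ± 49.2 and 119 ± 66.1) and Map2k3 (95.1 ± 14.5 and 82.2 ± 13.6), each in control and then ECS.

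Genes that TGF-beta can induce, most of which other signals induce as well, had higher values in ECS for 16 of 18 tested genes and lower values for 2. The median log2 fold change was 0.25, beside 49.2% higher and a median of -0.0078 over all genes tested. None passed. Over the 20 alternatives, in which 14 to 19 genes of the list were tested, 13 to 17 had higher values and the median was 0.16 to 0.48. The 0.48 came from rescaling to the same microglia markers, where all genes tested had a median of 0.19 and 64.3% were higher. Skil and Smad7 are also genes of this kind, and their log2 fold changes were -0.0088 and 0.15. Id2, an inhibitor of helix-loop-helix factors, was the highest of the list with 2816 ± 752 FPKM in the controls against 3134 ± 573 after ECS (SD, n = 3 each), and Junb, an AP-1 gene, was 347 ± 91.1 against 393 ± 81.4. Snai1, the gene of the repressor Snail, read 17.1, 14.7 and 9.85 FPKM in the controls and 27.8, 25.9 and 25.4 after ECS. Every ECS library exceeded every control library, the log2 fold change was 0.91 ± 0.31 (SE), and the unadjusted limma p was 0.0219. The fibronectin gene Fn1, which is also among the monocyte markers used here, read 427, 1196 and 1879.5 FPKM in the controls and 5184, 2482 and 868 after ECS, so the groups overlapped. The mean log2(FPKM + 1) of all 20 genes of the list came to 4.93, 5.18 and 5.31 for the controls against 5.69, 5.61 and 5.19 after ECS, with ECS 3 inside the control range. The 10 markers of border-associated macrophages, which lie along meninges and vessels, summed to 178 to 211.5 FPKM in control and 283 to 698 in ECS (10 of 10 tested, 1 listed at 0 in some library). Of these, 6 had higher and 4 lower values, and Pf4, Cbr2 and Clec10a made up most of the sum in ECS. Fibroblast markers, 1 of which (Col1a1) is also in the list, had higher values in ECS for 4 of 4 tested genes, with sums of 5.53 to 25.2 FPKM in control and 6.97 to 47.6 in ECS. Their lowest libraries were control 1 and ECS 3, which were also the lowest control and the lowest ECS library for the list. This was not particular to fibroblasts: the sums of endothelial and mural, oligodendrocyte, astrocyte and erythroid markers were lowest in control 1 and ECS 3 too. Endothelial and mural markers nevertheless had lower values in ECS for 9 of 11 tested genes, with a median log2 fold change of -0.34. Oligodendrocyte markers had higher values for 6 of 7 and astrocyte markers for 2 of 2. Erythroid markers had higher values for 6 of 6 (sums of 2231 to 32755 and 7207 to 77287 FPKM) and neutrophil markers lower values for 10 of 10. The part of none of these cell types in the values of the list was tested.

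Microglial genes that depend on TGF-beta had lower values in ECS for 14 of 20 genes and higher values for 6, with a median of -0.086, and 8 of the 20 are also microglia markers used here. The direction rested on single libraries: without ECS 2 the median was 0.082 and without control 1 it was 0.065. After libraries were rescaled to the same microglia markers the median of the list was 0.15, where all genes tested had a median of 0.19. As the 8 shared genes are among the 10 markers that set this scale, the rescaling cannot decide the direction of the list. Sparc averaged 1781 ± 452 FPKM in the controls against 1685 ± 475 after ECS, the receptor gene Csf1r 1516 ± 349.9 against 1411 ± 312, and the complement gene C1qa 1317 ± 347 against 1254 ± 356 (SD, n = 3 each). Fcrls, an Fc receptor-like gene of microglia, read 213, 169.8 and 146 FPKM in the controls and 100.0, 78.2 and 102 after ECS. Its groups did not overlap, and its unadjusted limma p was 0.00782.

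**Figure D5:**
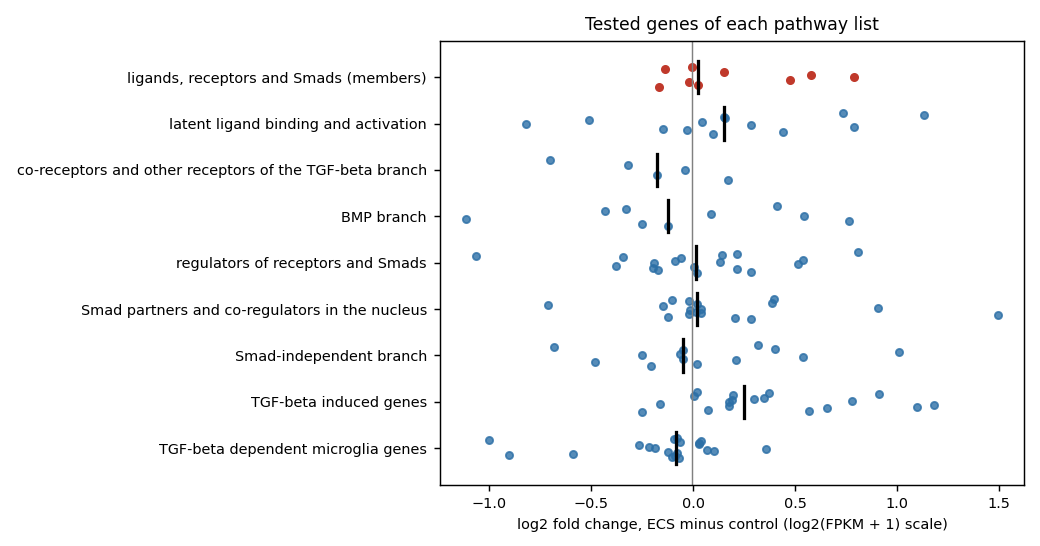
Log2 fold change of ECS minus control on the log2(FPKM + 1) scale for the tested genes of each group (points) with the median of the group (black bar). The grey line is the median of all 11315 genes tested, -0.0078. The medians run from -0.18 for co-receptors, which turned to 0.056 without ECS 2, to 0.25 for TGF-beta induced genes.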

How the data were processed

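The labels' protocols describe a poly(A) pull-down and the SENSE kit for making the libraries. The table holds FPKM that the authors computed and deposited, 1 column per library. The submitters' processing notes name TopHat2, Cufflinks and Cuffnorm and the build GRCm38. Versions, annotation, use of strand and scaling between libraries were not given in the sources used here. The depth is unknown: no step size put more than 23.7% of low values of genes with 1 transcript within 0.1 of whole multiples, where chance gives 20% for 1 step size. No counting interval is therefore given, and precision is the spread between pools. Positions come from GENCODE M21.

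Values were analysed as log2(FPKM + 1). On this scale folds of genes at low levels come out too small. A gene was tested where its mean reached 1 FPKM (11315 genes), by limma 3.58.1 under R 4.3.3 with a trended variance, as ECS minus control on both sides, and Benjamini-Hochberg adjustment ran over all of them; lists were only counted. Scripts were tested on simulated data. Members and lists were chosen with earlier results of these data known. Besides the 10 members the text names, per list, the 4 genes with the highest mean and up to 4 whose groups do not overlap at an unadjusted p under 0.05. For Tgfb1, Tgfbr1 and Ski it names the 3 genes of the most similar profile, predicted gene models left out. A gene that the rule takes is not reported here. The alternatives were other pseudocounts, filters, scalings, variance models, library weights, a replicate block, and libraries left out. Figures were drawn with matplotlib 3.10.9.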

Additional observations from a re-analysis of the deposited data

How the results depend on the processing

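Limma called no gene in either direction under the other pseudocounts, filters, variance models, left-out libraries and rescalings other than that to microglia markers, with 260 to 557 genes at an unadjusted p under 0.05. At the settings reported, 0 genes were under an adjusted p of 0.1, while the smallest was 0.0976 with a pseudocount of 0.1 FPKM and 0.0812 with 0.5 FPKM. Rescaling to the same microglia markers, chosen after the data were seen like the endothelial covariate and the removal of control 1 with ECS 3, moved the median of all genes to 0.19 and called 1 gene higher and 0 lower. No member passed in any of 20 alternatives (lowest adjusted p 0.874). With each replicate left out the log2 fold change was -0.36 to -0.035 for Tgfb1, -0.054 to 0.11 for Tgfbr1, -0.16 to 0.070 for Tgfbr2, 0.20 to 0.68 for Smad2, 0.16 to 1.52 for Smad3, 0.31 to 0.74 for Smad4, -0.047 to 0.43 for Smad7, -0.35 to 0.039 for Ski and -0.11 to 0.14 for Skil. Among the other settings, Tgfbr1 changed sign with rescaling to the same total (-0.065) or upper quartile (-0.024), quantile normalization (-0.046), library weights (-0.0036) and the endothelial covariate (-0.017). Skil did so with library weights (0.060) and without control 1 and ECS 3 together (0.019). Rescaling to microglia markers changed the sign of Tgfb1 (0.063), Tgfbr2 (0.21), Ski (0.092) and Skil (0.22), against the median of 0.19. The remaining members kept their sign there, with 0.25 for Tgfbr1, 0.37 for Smad7, 0.70 for Smad2 and 1.02 for Smad3. Smad4 was at 0.81, with an unadjusted p of 0.0291 and an adjusted p of 0.944 in limma. The cause was not tested. The labels give both groups the same replicate numbers. Over all genes tested, departures from the group mean correlated by -0.038, 0.097 and -0.11 between same-numbered libraries (numbers 1, 2 and 3). Libraries of different numbers were not compared in this way, so whether the numbers mark pairs was not settled. With the replicate block 0 genes were called higher and 0 lower. In this balanced design the block cannot change a fold change (Smad4 0.57 with and without it), only its SE. The SE was smaller with the block for Smad2, Smad3 (0.43 against 0.65) and Smad4 (0.25 against 0.31), and larger for the other tested members. Each member had 1 row, so no second row was tried.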

Other observations

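Several genes of the wider pathway varied together across the groups, and these were chosen after their values were seen. Tgfb2, the gene of the remaining TGF-beta ligand, read 1.44, 2.95 and 27.1 FPKM in the controls and 49.6, 8.04 and 5.22 after ECS. It exceeded Tgfb3 in all 6 libraries but was far below Tgfb1. Ltbp1, which encodes a protein that binds latent TGF-beta, read 9.12, 5.32 and 21.8 FPKM in the controls and 42.9, 13.9 and 10.5 after ECS. Thbs1 and Bmp2, given in the report, had the same order at the top as these genes: ECS 1, then control 3, ECS 2 and ECS 3. Tgfb1 had ECS 1 as its lowest library. Nrros, which encodes the protein that holds latent TGF-beta1 on microglia, read 87.3, 72.9 and 71.6 FPKM in the controls and 57.5, 150.4 and 72.6 after ECS, while the integrin gene Itgb8 was at most 0.991 FPKM.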
